A study of Mus musculus with 46 samples.

Results

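The voltage-gated potassium channel genes of the Kv1 and Kv3 subfamilies were followed in single OLM cells, the oriens-lacunosum moleculare interneurons of the hippocampus. The members were chosen by gene symbol: the Kv1 genes Kcna1, Kcna2, Kcna3, Kcna4 and Kcna6, and the Kv3 genes Kcnc1, Kcnc2 and Kcnc4. These 8 were found among the 22800 genes of the count table by symbol. The study compared OLM cells of an Htr3a Cre driver line with those of an Sst Cre driver line, 23 cells each, from mice aged postnatal day 21 to 30. Cre under the Htr3a gene marks cells by a serotonin receptor, and Cre under the Sst gene marks them by somatostatin. The labels give every cell the type OLM and name no further allele or treatment. RNA came from cytosol drawn into a patch pipette. Each deposited sample is 1 cell and 0 animals are named, so each line counts as 1 sample, the lines were compared without any test, and SDs are between cells.

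Kv channels are tetramers of pore-forming subunits, and members of the same subfamily can assemble together. Kv1 channels open near the firing threshold, sit mainly on axons and terminals, and hold back firing and transmitter release. Kv3 channels open at depolarized voltages and close quickly, which shortens the action potential and lets interneurons fire at high rates. Kcna4 (Kv1.4) and Kcnc4 (Kv3.4) form channels that inactivate fast, while the other members listed form slowly inactivating ones.

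Because the members are paralogs, the coding stretch for the potassium selectivity filter, the part of the pore that is most conserved in these channels, is shown first. It shows whether reads of 1 member could be taken for another. Each run has 45 bases, 5′ to 3′ on the coding strand, from GENCODE M21 transcripts (GRCm38), and capitals mark bases that differ from Kcna1.
Kcna1: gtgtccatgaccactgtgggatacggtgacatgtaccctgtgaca
Kcna2: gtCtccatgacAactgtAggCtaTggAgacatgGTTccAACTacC
Kcna3: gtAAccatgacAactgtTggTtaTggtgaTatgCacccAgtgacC
Kcna4: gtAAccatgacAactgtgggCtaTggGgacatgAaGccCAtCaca
Kcna6: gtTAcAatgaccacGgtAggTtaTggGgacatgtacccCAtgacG
Kcnc1: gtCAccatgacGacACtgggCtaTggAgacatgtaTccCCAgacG
Kcnc2: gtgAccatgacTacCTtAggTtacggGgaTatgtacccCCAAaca
Kcnc4: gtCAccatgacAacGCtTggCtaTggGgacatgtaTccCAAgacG

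Even in this stretch the 28 pairs of members differed at 5 to 17 of 45 bases, with the fewest between Kcnc1 and Kcnc4. The runs lie on chromosome 6 at 126642210 to 126642254 (Kcna1, minus strand) and 126738629 to 126738673 (Kcna6, minus), and on chromosome 3 at 107105212 to 107105256 (Kcna2, plus), 107037599 to 107037643 (Kcna3, plus) and 107447781 to 107447825 (Kcnc4, minus). The others lie on chromosome 2 at 107296483 to 107296527 (Kcna4, plus), chromosome 7 at 46427961 to 46428005 (Kcnc1, plus) and chromosome 10 at 112456217 to 112456261 (Kcnc2, plus). Over whole transcripts, the share of 31-base words also present in another gene's transcripts was 0% for Kcnc2 and up to 1.92% for Kcna3, with 1 exception. For Kcna6 it was 39.2%, because an annotated antisense gene, Gm26673, covers 2355 of its 5945 exon bases. The strand setting of the read counting is not given in the sources used. Whether reads of Gm26673 were counted for Kcna6 is therefore not known, and Kcna6 values are uncertain to that extent. Gm26673 itself is not among the genes of either deposited set of counts.

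Assigned reads per cell had a median of 15336981 in the Htr3a line (range 3391829 to 26136222) and 16726879 in the Sst line (range 5639490 to 31386369). A median of 8169 genes was read in Htr3a-line cells and 6569 in Sst-line cells, and 7615 against 6379 after every cell was thinned to 3000000 reads. CPM stands for reads scaled to 1000000 assigned reads. Of 11196 genes whose mean log2(CPM + 1) reached 0.5, 64.3% had fewer Sst-line than Htr3a-line cells with reads, as did 6 of the 7 members among them. OLM marker genes summed to 2420 CPM or more in 46 of 46 cells. In most cells Sst alone gave the larger part of this sum, so it says little about the other OLM markers. Of Crhbp, another of them, Htr3a line replicates 4 and 20 held 22 and 18 reads. Replicates 4 and 20 of the Htr3a line differed from the rest by holding 4 and 24 reads of Gad1, a GABA-synthesizing enzyme. Gad1 is 1 of 3 GABAergic genes listed. Of Gad2, another of the 3, replicate 4 held 555 CPM and replicate 20 held 1.47 CPM. Summed over the 3 genes, both cells held more than Htr3a line replicates 10 and 11. Replicates 4 and 20 were thus low in Gad1 and Crhbp, not in all GABAergic genes. The line differences of the 7 members compared are also given without replicates 4 and 20.

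Kcnc2 was the member read in 46 of 46 cells, as were 448 (4.0%) of the 11196 genes. Kcnc2 (Kv3.2, chromosome 10, 112271121 to 112467024, protein-coding) is a Kv3 subunit of somatostatin and parvalbumin interneurons. Its level was 33 to 1390 CPM in Htr3a-line cells (median 296) and 3.51 to 1079 CPM in Sst-line cells (median 362). The ranges overlapped almost entirely. The direction between lines depended on the summary taken. Mean levels, as log2(CPM + 1), were 8.23 ± 1.26 (SD, 23 cells) for the Htr3a line and 7.94 ± 2.18 (23 cells) in the Sst line, a difference of -0.29. Medians differed by 0.29 and summed CPM by a log2 ratio of 0.11. Summed over cells, Kcnc2 took 379 CPM (exact Poisson 95% interval 377 to 381) in the Htr3a line and 410 CPM (408 to 412) in the Sst line. Such intervals cover the counting of reads and not the spread between cells, so they do not compare the lines. Kcnc2 was scarce in 2 Sst-line cells, replicate 8 with 60 reads (3.51 CPM) and replicate 23 with 85 reads (4.84 CPM), and without replicate 8 the mean difference was -0.03, while without Htr3a line replicates 4 and 20 it was -0.21. In every other cell it was at 10 CPM or more.

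Kcnc1 (Kv3.1, chromosome 7, 46396497 to 46438704), the Kv3 subunit best known from parvalbumin basket cells, was read in 20 of 23 cells of the Htr3a line (87.0%, exact Clopper-Pearson 95% interval 66.4 to 97.2) and in 19 of 23 of the Sst line (82.6%, 61.2 to 95.05). Over the cells with reads it ran from 0.360 to 510 CPM (median 41.0) in the Htr3a line and from 1.19 to 292 CPM (median 69.5) in the Sst line. The mean log2(CPM + 1) over all cells was 4.55 ± 2.73 (SD, 23 cells) and 4.94 ± 2.74 (23 cells), a difference of 0.39 that is small beside the SDs. It was 0.18 without Htr3a line replicate 16, 0.61 without Sst line replicate 4, and 0.63 without Htr3a line replicates 4 and 20. Summed CPM was 63.9 (63.1 to 64.8) and 73.1 (72.2 to 74.0). At 10 CPM or more, Kcnc1 and Kcnc2 were found together in 33 cells, and Kcnc1 without Kcnc2 in 1 Sst-line cell.

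Kcnc4 (Kv3.4, chromosome 3, 107438303 to 107459552), the fast-inactivating Kv3 subunit, was read in 14 of 23 cells of the Htr3a line (60.9%, 38.5 to 80.3) and in 9 of 23 of the Sst line (39.1%, 19.7 to 61.5). These intervals cover counting error, not the spread between animals, and are no test between the lines. In cells with reads the medians were alike, at 27.2 CPM (0.125 to 152) and 26.7 CPM (0.284 to 233). Over all cells the means were 2.67 ± 2.86 (SD, 23 cells) and 1.83 ± 2.69 (23 cells), a difference of -0.84. This difference passed -1 (-1.02 to -1.12) without Sst line replicate 2, 4, 5 or 19, each left out in turn, and it was -1.10 without Htr3a line replicates 4 and 20. The summed CPM of Kcnc4 was 30.9 in the Htr3a line and 21.3 in the Sst line, or 13.1 there without replicate 4, the cell with the highest level. After thinning to 3000000 reads it was read in 13 and 9 cells.

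**Figure D1:**
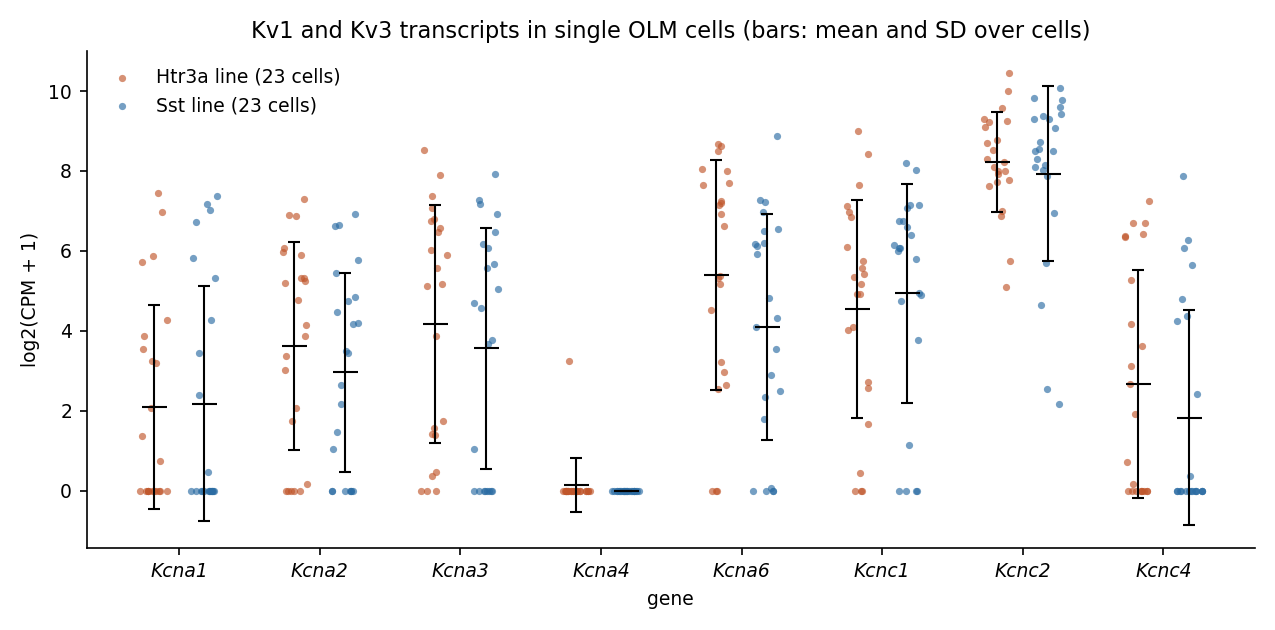
Level of each member, as log2(CPM + 1), in every cell (points, Htr3a line in orange and Sst line in blue, 23 cells each), with the mean and SD over cells as black bars. Kcnc2 lies above 0 in 46 of 46 cells, Kcna4 in 1 cell, and the other members split into cells at 0 and cells with reads in both lines.

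Of the Kv1 genes, Kcna6 (Kv1.6, chromosome 6, 126708329 to 126740674) had the highest level not scaled by length. It was read in 20 of 23 cells of the Htr3a line (87.0%, 66.4 to 97.2) and in 19 of 23 of the Sst line (82.6%, 61.2 to 95.05). In cells with reads it ran from 4.82 to 405 CPM (median 130) in the Htr3a line and from 0.0536 to 466 CPM (median 59.997) in the Sst line, so the ranges overlap. After thinning it was read in 20 and 18 cells. Besides Kcna6 and Kcnc4, the cell counts of the members were the same thinned or not. It reached 100 CPM in 11 cells of the Htr3a line and 4 of the Sst line. Its mean was 5.39 ± 2.88 (SD, 23 cells) in the Htr3a line and 4.10 ± 2.82 (23 cells) in the Sst line. The difference of -1.30 was the largest in size among the members, yet less than 1 SD between cells. It stayed between -1.54 and -1.11 with each cell left out, and was -1.81 without Htr3a line replicates 4 and 20 and -0.90 with a pseudocount of 10. Summed CPM was 134 (133 to 135) against 61.0 (60.2 to 61.8).

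Kcna3 (Kv1.3, chromosome 3, 107036169 to 107038070), best known from T cells and microglia, was read in 20 of 23 cells of the Htr3a line (87.0%, 66.4 to 97.2) and in 15 of 23 of the Sst line (65.2%, 42.7 to 83.6). Levels in cells with reads were 0.295 to 369 CPM (median 52.9) and 1.08 to 241 CPM (median 50.1). The means over all cells were 4.18 ± 2.98 (SD, 23 cells) and 3.57 ± 3.01 (23 cells), a difference of -0.61, or -0.99 without Htr3a line replicates 4 and 20. Among cells with reads the order of the lines turned, with a mean log2(CPM) of 4.46 ± 3.19 in 20 Htr3a-line and 5.37 ± 1.95 in 15 Sst-line cells, a gap smaller than either line's SD. At 10 CPM or more it was found in 14 cells of each line.

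Because microglia carry Kcna3 and other microglial transcripts were read in these libraries, both were set side by side. The 9 microglial genes listed, all read in both lines, summed to a median of 448 CPM (0 to 8443) in Htr3a-line and 774 CPM (0.0536 to 10876) in Sst-line cells. Over the 46 cells, Spearman's rho between Kcna3 and that sum was -0.05, and it was 0.08 in the Htr3a line and -0.09 in the Sst line. The highest Kcna3 level, 369 CPM in Htr3a line replicate 8, came with 185 CPM of microglial genes. Htr3a line replicate 11, with 8443 CPM of microglial genes, held 2.36 CPM of Kcna3. Sst line replicate 10, with the highest microglial sum (10876 CPM), held 88.4 CPM of Kcna3, Htr3a line replicate 5 (7696 CPM) held 46.9, and Sst line replicate 5 (8627 CPM) had no Kcna3 read. The part of microglial RNA in the Kcna3 values was not tested further.

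Kcna2 (Kv1.2, chromosome 3, 107101146 to 107115005), a main axonal Kv1 subunit, was read in 18 of 23 cells of the Htr3a line (78.3%, 56.3 to 92.5) and in 16 of 23 of the Sst line (69.6%, 47.1 to 86.8). In cells with reads it ran from 0.130 to 156 CPM (median 36.3) and from 1.053 to 120 CPM (median 19.2). The means over all cells were 3.62 ± 2.59 (SD, 23 cells) and 2.96 ± 2.50 (23 cells), a difference of -0.66, or -1.01 without Htr3a line replicates 4 and 20. Summed CPM was 34.3 (33.7 to 34.9) and 24.9 (24.4 to 25.4).

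Kcna1 (Kv1.1, chromosome 6, 126640397 to 126646384), whose loss causes seizures in mice, was read in 12 of 23 cells of the Htr3a line (52.2%, 30.6 to 73.2) and in 10 of 23 of the Sst line (43.5%, 23.2 to 65.5). It stood at 100 CPM or more in 2 Htr3a-line cells and 4 Sst-line cells and was not read in 11 and 13. Its median in cells with reads was 12.1 CPM (0.674 to 174) in the Htr3a line and 47.3 CPM (0.386 to 165) in the Sst line. The mean difference was 0.07 and lay between -0.16 and 0.32 with each cell left out, so no direction can be given. Its CPM summed over the line came to 21.98 (Htr3a, or 13.2 without replicate 18) and 35.2 (Sst).

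Kcna4 (Kv1.4, chromosome 2, 107290639 to 107298502) was read in 1 of 23 Htr3a-line cells (4.35%, 0.110 to 21.9), replicate 10, with 159 reads or 8.55 CPM. That cell also had the most genes read, 12693. In the Sst line 0 of 23 cells held a Kcna4 read, so a share of up to 13.04% is allowed by the limit of 3 counts in 23 (the Clopper-Pearson upper bound is 14.8%), a limit on cells with a read and not on cells expressing the gene. Its mean lay below the minimum of 0.5, so the counts between lines that follow rest on 7 of the 8 members.

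**Figure D2:**
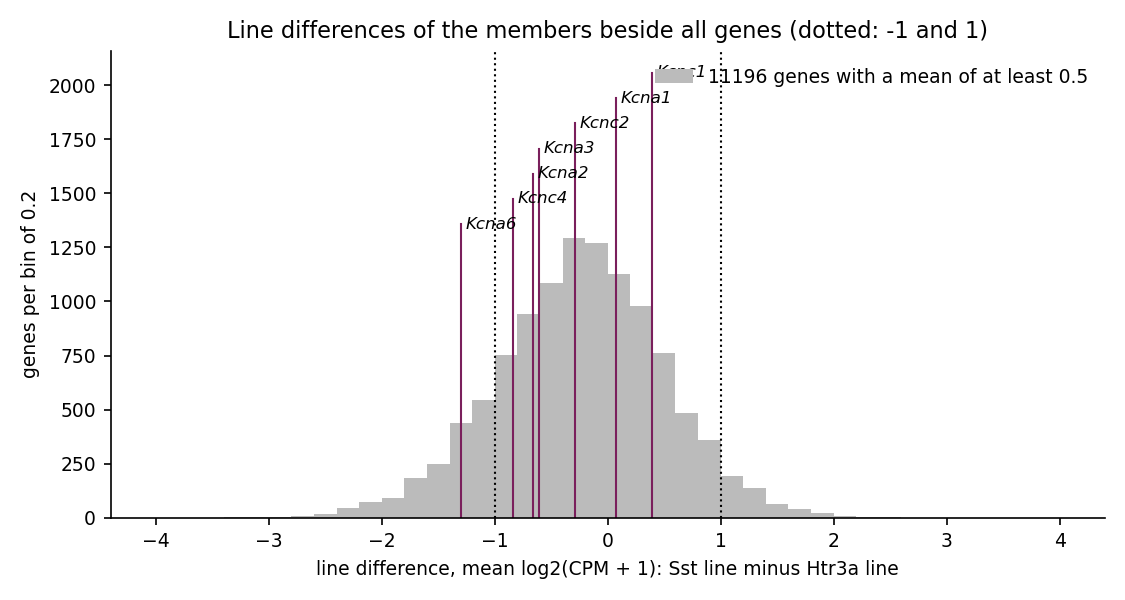
Histogram of the line difference (mean log2(CPM + 1), Sst line minus Htr3a line) over 11196 genes in bins of 0.2, with purple lines for the 7 members above the expression minimum and dotted lines at -1 and 1. Kcna6 at -1.30 lies past -1, and the other 6 lie between -0.84 and 0.39.

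Set beside the other genes, of the 7 members above the minimum, 5 had a negative and 2 a positive line difference, and 62.6% of the 11196 genes were lower. The members' median line difference was -0.61 and that of all 11196 genes -0.22. A difference of at most -1 was found for 1 member, Kcna6, and for 14.9% of the genes, and a difference of at least 1 for 0 members and 4.24% of the genes. Without Htr3a line replicates 4 and 20 the members at -1 or below were 3 (Kcna6, Kcnc4 and Kcna2), the share of genes became 20.3%, the median of the members -0.99, and Kcna1 turned to -0.13. These values do not set the channel genes apart from the table.

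Per kilobase of annotated exon, the scale on which different genes can be compared (RPKM, the CPM per kilobase), the mean over 46 cells was 58.6 for Kcnc2, 30.3 for Kcna3, 15.9 for Kcna6, 8.26 for Kcnc1, 6.997 for Kcnc4, 5.203 for Kcna1, 2.49 for Kcna2 and 0.0384 for Kcna4. Kcnc2 exceeded Kcna3, the next member, in 35 of 46 cells, with a mean gap of 2.07 ± 2.88 (SD, 46 cells) in log2(RPKM + 1). For 0 of the 7 neighbouring pairs in this order was the mean gap larger than its SD over cells, so the order is one of means and not of each cell. It also rests on the length used. By coding length the means were 59.4 for Kcna6, 44.5 for Kcnc1, 36.4 for Kcna3, 19.8 for Kcna2, 16.7 for Kcna1 and 13.6 for Kcnc4, below 217 for Kcnc2. Among 20 Kv pore genes listed, which add Kv2, Kv4 and Kv7 genes, Kcnc2, Kcna3 and Kcna6 had the 3 highest means per kilobase of annotated exon, followed by Kcnd3 (11.1) and Kcnd2 (10.5) of the Kv4 subfamily.

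**Figure D3:**
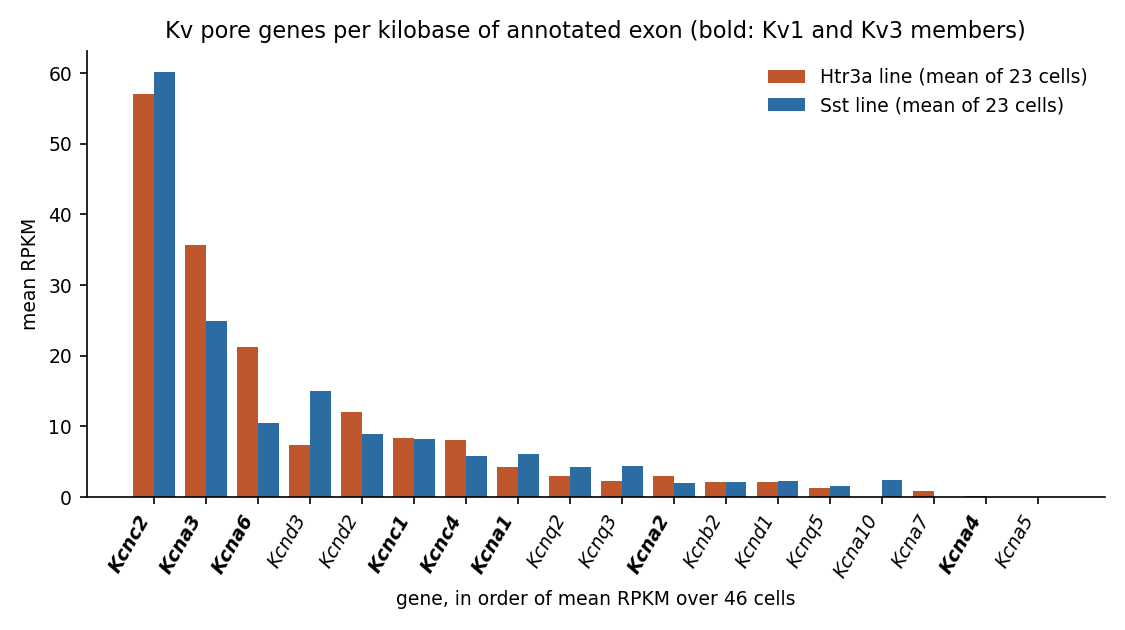
Mean RPKM of the members and of other Kv pore genes in the Htr3a line (orange) and the Sst line (blue), 23 cells each, ordered by the mean over 46 cells, with Kv1 and Kv3 members in bold and no error bars drawn. Kcnc2 stands at 57.1 and 60.2, Kcna3 at 35.7 and 24.9, and Kcna6 at 21.2 and 10.5.

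Kcnc2 led the Kv3 mix in both lines. It made up 77.6% of the mean Kv3 sum in the Htr3a line and 81.1% in the Sst line, Kcnc1 11.4% and 11.02%, and Kcnc4 11.1% and 7.90%. In single cells the Kcnc2 share had a median of 78.9% (47.2 to 100) and 83.1% (13.8 to 100), and the SDs between cells were 14.95 and 22.4 percentage points. Kcnc2 was the highest of the 3 in 23 cells of the Htr3a line and 20 of the Sst line. The exceptions, all in the Sst line, were 2 cells led by Kcnc1 and 1 led by Kcnc4. These counts rest on the annotated exon lengths. By coding length Kcnc2 led in 22 Htr3a-line and 20 Sst-line cells, Kcnc1 in 1 and 3, and Kcnc4 in 0 of either line. Kcnc1 with Kcnc2 and without Kcnc4 was the combination of 8 cells of the Htr3a line and 12 of the Sst line, and all 3 together that of 12 and 7.

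The Kv1 mix was more varied from cell to cell. Kcna3 made up 55.6% of the mean Kv1 sum in the Htr3a line and 57.2% in the Sst line, Kcna6 33% and 24.1%, Kcna1 6.69% and 14.03%, and Kcna2 4.59% and 4.64%. In single cells the Kcna3 share ran from 0 to 100% in the Htr3a line and from 0 to 98.2% in the Sst line. Kcna3 led in 12 and 11 cells and Kcna6 in 9 and 10, Kcna1 in 1 of each line and Kcna2 in 1 Sst-line cell. This order of Kcna3 and Kcna6 rests on the annotated lengths, 1902 exon bases for Kcna3 and 5945 for Kcna6: divided by coding length (1584 and 1587 bases), Kcna6 came first with 49.7% and 37.5% against 26.8% and 28.5% for Kcna3.

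**Figure D4:**
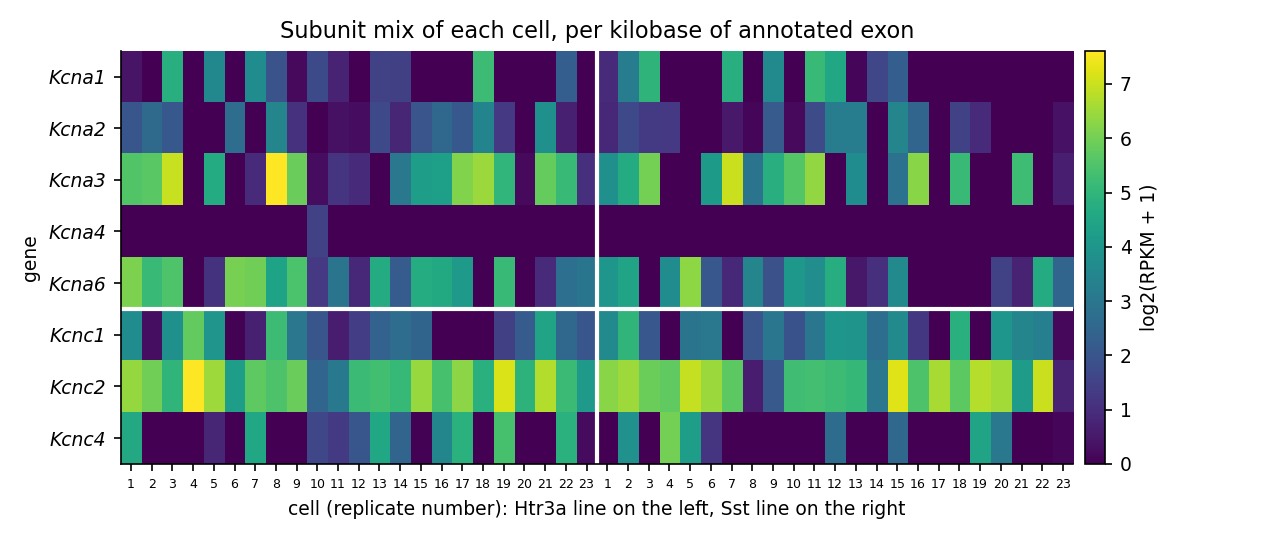
Colour map of log2(RPKM + 1) for the 8 members (rows, Kv1 above the white line and Kv3 below) in the 46 cells (columns, Htr3a line left, Sst line right, by replicate number). The Kcnc2 row is filled in 46 of 46 cells. The brightest Kv1 row is Kcna3 in 23 cells, Kcna6 in 19, Kcna1 in 2 and Kcna2 in 1, and 1 Htr3a-line cell has no Kv1 read.

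Cells held a median of 6 of the 8 members in the Htr3a line (2 to 7) and 5 in the Sst line (2 to 7), and the same medians after thinning to 3000000 reads. With 10 CPM as the minimum both medians were 4. The number of members read went with the number of genes read in a cell, with a Spearman's rho of 0.70 over 46 cells, 0.73 within the Htr3a line and 0.61 within the Sst line. The part of this in the line differences was not tested. At 1 read, the most common Kv1 set over both lines was Kcna1, Kcna2, Kcna3 and Kcna6 together, found in 7 cells of each line. Kcna2, Kcna3 and Kcna6 without Kcna1 were found in 8 cells of the Htr3a line and 3 of the Sst line. At 10 CPM this second set was the more common, in 7 and 0 cells, against 2 and 4 for the first. Kcna6 as the single Kv1 member read was found in 0 cells of the Htr3a line and 4 of the Sst line, 1 of which (replicate 17) held a single read, and at 10 CPM in 2 and 4.

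Joint reads of Kv1 pairs are given beside the single counts, 34 cells for Kcna2, 35 for Kcna3 and 22 for Kcna1. Kcna2 and Kcna3, which neighbour each other on chromosome 3, were both read in 29 of 46 cells, with 11 cells holding 1 of them (5 Kcna2, 6 Kcna3) and 6 neither. Their levels had a rho of 0.46 over cells, 0.61 in the Htr3a line and 0.33 in the Sst line. Kcna1 and Kcna2, known partners in axonal channels, were both read in 18 cells, while 4 held Kcna1 and 16 Kcna2 without the other. Their rho was 0.24 over the 46 cells, but -0.07 in the Htr3a line and 0.54 in the Sst line. Kcnc1 and Kcnc2 had a rho of 0.24, with 0.40 in the Htr3a line and 0.10 in the Sst line. Over the 46 cells the other pairs lay between -0.31 and 0.35. All are correlations in sparse counts over cells that share depth and library effects, and are given as a description.

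Per kilobase of annotated exon, the Kv3 sum exceeded the Kv1 sum in 17 of 23 Htr3a-line and 14 of 23 Sst-line cells. Both sums depend on the length used, and these cell counts were made for annotated exons only. The Kv1 sum had a median of 47.0 RPKM (0 to 227) in the Htr3a line and 31.6 RPKM (0.00901 to 155) in the Sst line. The Kv3 sum had medians of 64.96 RPKM (9.43 to 249) and 62.5 RPKM (0.881 to 167). Both sums overlapped between the lines. Htr3a line replicate 4 held no Kv1 read and the highest Kcnc2 (1390 CPM) and Kcnc1 (510 CPM) of its line. It also held 13314 CPM of oligodendrocyte genes, the highest such sum, 4 Gad1 reads, 555 CPM of Gad2 and 4545 CPM of Sst. Spearman's rho of the oligodendrocyte sum with Kcnc2 was 0.21 over 46 cells, 0.51 in the Htr3a line and -0.02 in the Sst line. With Kcnc1 it was 0.325, 0.48 and 0.03. Over 46 cells the other members compared lay between -0.18 and 0.08. The part of oligodendrocyte RNA in the channel values was not tested.

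**Figure D5:**
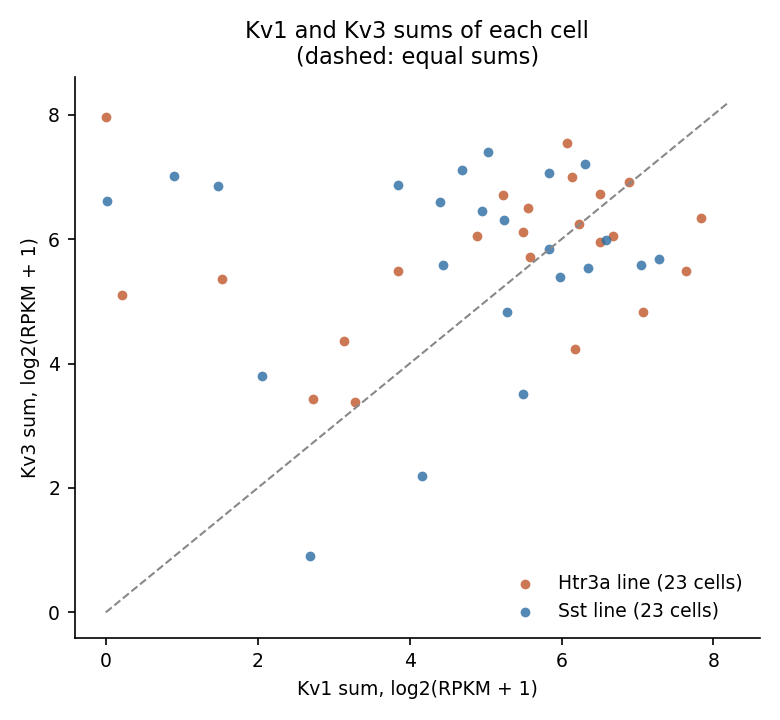
Kv1 sum against Kv3 sum of each cell, both as log2(RPKM + 1), with a dashed line at equal sums and cells coloured by line. Points above the line, 17 cells of the Htr3a line and 14 of the Sst line, hold more Kv3 than Kv1, and 1 Htr3a-line cell lies at a Kv1 sum of 0.

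Kv1 channels bind cytoplasmic beta subunits, which alter inactivation and trafficking. All 3 listed genes were lower in the Sst line by the mean, 2 of them past -1, and 2 were lower by summed CPM. Of all 11196 genes, 62.6% were below 0 by the mean and 14.9% at -1 or below. Kcnab2 was read in 20 cells of the Htr3a line and 14 of the Sst line, with means of 3.98 ± 2.27 (SD, 23 cells) and 1.71 ± 2.34 (23 cells). At 5 reads or more it was found in 20 and 9 cells. Its difference of -2.27 lay between -2.46 and -2.15 with each cell left out, and 0.607% of the 11196 genes had a lower one. It was -1.01 with a pseudocount of 10 and -1.28 by summed CPM. Kcnab1 was read in 13 and 10 cells (difference -1.14, or -0.57 with a pseudocount of 10), with a summed CPM of 79.9 in the Htr3a line, 51.0 without replicate 18, and 27.0 in the Sst line. Kcnab3 was read in 7 cells of each line (difference -0.08, of either sign with single cells left out, and 0.30 by summed CPM). Ranges of all 3 overlapped between lines, and the list median of -1.14 describes 3 genes.

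Of 9 genes of the axonal Kv1 complex, which anchor or modulate these channels, 5 fell below 0 in line difference and 4 above (6 and 3 with TMMwsp factors, and without Htr3a line replicates 4 and 20). Their median was -0.28, and 0.37 by summed CPM. Of all 11196 genes, 62.6% were below 0 by the mean and 4.24% at 1 or above. Ank3, the ankyrin that organizes the axon initial segment, was the 1 gene past 1, read in 20 cells of the Htr3a line and 23 of the Sst line (4.82 ± 2.45 against 6.08 ± 2.02, 23 cells each, difference 1.26, or 0.85 with a pseudocount of 10). Lgi1, a secreted protein that acts through Adam22 and Adam23, was at -0.74 (-1.13 without Htr3a line replicates 4 and 20) and Adam23 at -0.66, but by summed CPM Adam23 stood at 50.2 in the Sst line against 42.5. The Kv3 ancillary genes Kcne3 and Kcne4 had reads in 0 of 46 cells, and Kcne1l in 1 Htr3a-line cell. Of 8 other Kv pore genes, 3 were below 0 and 5 above, or 4 and 4 with TMMwsp factors (median 0.17, or -0.06 without Htr3a line replicates 4 and 20), with Kcnb2 at -1.32 and Kcnq3 at 0.70 (0.43 without those replicates). Kcnb2 was at -0.25 by summed CPM, where the Sst line took 29.0, or 13.6 without replicate 17.

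For each member with reads in at least 12 cells, the gene of 10004 with the most similar level over the 46 cells was taken, and named where Spearman's rho was at least 0.6. It was Fbxl5 for Kcna2 (0.69), Calr for Kcnc2 (0.66), Dvl1 for Kcna6 (0.64), Gm14296 for Kcna3 (0.64), Kif1a for Kcnc1 (0.63) and Mars2 for Kcna1 (0.62). For Kcnc4 the highest rho was 0.59. Each is the highest of 10004 values and comes from cells that share depth and library effects. Within the lines the rho of Kcna1 with Mars2 was 0.44 (Htr3a) and 0.83 (Sst), and that of Kcna2 with Fbxl5 0.72 and 0.65.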

How the data were processed

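Libraries of 46 single OLM cells, 23 per driver line, were analysed. Raw read counts per gene, by symbol and by Ensembl identifier, were deposited by the authors. Per the submitters' processing notes, Trimmomatic, STAR and featureCounts were used with GRCm38, with versions, annotation and strandedness not given in the sources used here. The deposited normalized signal equals the count divided by 1 factor per cell (100% of non-zero values within 0.1%, factors 0.144 to 2.09). The counts of all 8 members were identical in both count tables, and 0 of the libraries were duplicates of another.

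Counts were scaled to CPM, and levels are log2(CPM + 1). The line difference subtracts the Htr3a-line mean from the Sst-line mean and is set beside the 11196 genes with a mean of at least 0.5. RPKM divides CPM by the length of the union of GENCODE M21 exons in kilobases. Intervals (Clopper-Pearson for shares, Poisson for summed CPM) have 95% confidence and cover counting error, and no molecular identifiers are named. The depth, 3391829 to 31386369 reads per cell, makes these intervals narrow beside the spread between cells.

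All 8 members, the beta subunit, Kv3 ancillary and other Kv1 or Kv3 pore genes were to be named. Of the axonal complex and the other Kv pore genes, the 3 with the largest difference among those read in at least 12 cells were named, except that some results are not reported here. Members and lists were chosen with earlier results of these data known. Cells were numbered in accession order. Alternatives were a pseudocount of 10, TMMwsp factors by edgeR 4.0.16, poscounts factors by DESeq2 1.42.0, the normalized values as deposited, thinning, medians, summed CPM, other minimums and lengths, the Ensembl table, and leaving out cells.

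The line difference was tested on simulated counts for 22800 genes, drawn after shuffling each gene's CPM over cells. With 100 genes raised and 100 lowered 4-fold among Sst-line cells, 98% of the raised came out positive (median 1.72) and 97% of the lowered negative (median -1.54). The unchanged genes had a median of -0.05. The planted changes were larger than the members' line differences of -1.30 to 0.39. They therefore do not show how differences of that size come out. No doublet caller was run, since cells were drawn 1 by 1.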

Additional observations from a re-analysis of the deposited data

How the results depend on the processing

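No paired analysis was possible because the groups come from different cells, their replicate numbers were given in accession order, and no test was made. The count of members at a line difference of -1 or below, 1 as reported, was 0 with a pseudocount of 10, 2 by medians over cells (Kcna6 and Kcnc4), 3 without Htr3a line replicates 4 and 20, and 1 to 2 with each cell left out. With the same pseudocount the share of all genes at -1 or below was 1.65%. The median number of members read per cell in the Htr3a line was 4 in place of 6 with a minimum of 10 CPM. Members lower in the Sst line numbered 5 of 7 under the other scalings, after thinning and in the Ensembl table, 4 by summed CPM and 6 without Htr3a line replicates 4 and 20. The share of all genes that were lower was 60.8% to 64.7% with TMMwsp, poscounts or deposited scaling. It was 62.5% after thinning and in the Ensembl table, 48.95% by summed CPM and 69.85% without those replicates. By medians over cells 5 members and 43.5% of the genes were lower. The signs of Kcna2, Kcna3, Kcna6 and Kcnc4 stayed negative under every alternative listed, while those of Kcna1 and Kcnc2 did not. The share of Kcnc2 in the Kv3 sum stayed between 76.6% and 83.7% with cells left out, and was 81.5% and 84.3% by longest transcript. At 23 cells per line, with SDs of 1.26 to 3.01 between cells for the 7 members, the line difference of each of the 7 was smaller than the SD of either line.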

Other observations

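Some relatives of the members outside the list were read in single cells, and were named because the rule takes them. Kcna10, which lies near Kcna2 on chromosome 3, was read in 1 Sst-line cell (replicate 4) at 120 CPM, a cell in which Kcna3 had 0 reads and Kcnc4 its highest level. Kcna7 was read in 1 Htr3a-line cell (replicate 19) at 40.2 CPM. Kcna5 was read in 1 Sst-line cell at 0.0866 CPM.

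Parvalbumin, a marker of fast-spiking interneurons that carry much Kcnc1, had no reads in most cells of either line. Its ranks over cells are therefore mostly ties, and a rho with it can show little. Pvalb and Kcnc1 had a Spearman's rho of -0.01 over 46 cells (0.06 in the Htr3a line, -0.14 in the Sst line). It was -0.19 for Pvalb and Kcnc2 (-0.23 and -0.25), and -0.15 for Pvalb and Kcnc4 (-0.01 and -0.225). The 4 fast-spiking markers listed summed to a median of 0 CPM in both lines, and reached at most 189 CPM (Htr3a line) and 165 CPM (Sst line), and Tac1 was at 0 in the Sst line.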
